A study of Mus musculus with 2 samples.

Results

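The cytosolic ribosomal protein genes were examined in maps of open chromatin from the spleen. They were taken as the protein-coding GENCODE genes with a symbol of the Rpl or Rps series, plus Rplp0, Rplp1, Rplp2 and Rpsa, without the Rps6k kinases and Rps19bp1. This gave 91 of 21938 protein-coding genes. Of these, 77 encode the standard proteins of the cytosolic ribosome and are called core genes here, 46 of the large and 31 of the small subunit. A further 7 are paralogs (Rpl3l, Rpl7l1, Rpl10l, Rpl22l1, Rpl36al, Rpl39l and Rps27l). The last 7 are retrocopies that the annotation lists as coding (Rpl10-ps3, Rpl9-ps1, Rpl9-ps6, Rpl36a-ps1, Rpl36-ps4, Rps12-ps3 and Rps27rt). The rule uses gene names and no measured value, and the family was chosen with earlier results of these data known.

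The maps come from DNase-seq, in which the enzyme DNase I cuts accessible DNA and the density of cuts is read by sequencing. Whole spleen from 2 male mice aged 2 months was used, called animal 1 and animal 2 after their biological replicate numbers. Both were B6CASTF1/J, the first-generation hybrid of C57BL/6J and CAST/EiJ, with no treatment or mutation in the labels. They form 1 group, so no test between conditions was possible and each mean ± SD below has n = 2. In whole tissue, a site that is open in fewer cells and a site that is less open in each cell cannot be told apart.

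Most ribosomal proteins are needed in equal amount, and dividing or secreting cells devote much of their transcription to these genes. Their promoters are active in nearly all cell types, mostly without a TATA box, and are known in other systems for sites of ETS-family factors such as GABPA, for YY1 sites and for a CGCG element read by ZBTB33 or BANP. Their messenger RNAs begin with a cytosine in a run of pyrimidines, the 5′ terminal oligopyrimidine or TOP sequence. Through that sequence mTOR and its target LARP1 adjust translation of the whole family at once. In the spleen these genes matter for lymphocyte growth and red cell formation, and mutations in several of them cause Diamond-Blackfan anaemia.

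The deposited peak lists used here numbered 79246 (animal 1) and 77231 (animal 2), with 211394 and 215907 footprint intervals. The tissue label was checked at promoters: the B cell genes Cr2, Pax5 and Ms4a1 stood at mean heights of 12.4, 12.2 and 4.16, whereas the genes for albumin (Alb), insulin (Ins2), apolipoprotein A-I (Apoa1) and keratin 5 (Krt5) had no promoter peak. The T cell gene Lck stood at 5.99 and Cd3e at 0.884. Of the red pulp macrophage genes, Hmox1 reached 2.68, Vcam1 0.561 and Spic 0.487, and Adgre1 had no peak. Not every gene typical of other tissues was closed, since the exocrine pancreas gene Cela1 and the muscle gene Ckm had peaks of 4.64 and 4.63 and Gfap one of 1.09.

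All 77 core genes had an open promoter in both spleens. The promoter was counted as reaching 1 kb to either side of every annotated transcription start site (TSS). The height of a gene is that of the strongest peak within it, in the authors' signal units. With the paralogs and retrocopies, 81 of the 91 genes were open in both animals by this rule. The background was 59.8% of all protein-coding genes, or 13116 genes, which are called open genes below. All 77 core genes also had a promoter peak in the shorter list in both animals. Among the core genes the median height was 9.84 in animal 1 and 10.7 in animal 2, or 10.3 ± 0.636. The median over open genes was 5.82 and 7.0, so the core genes stood 1.69 and 1.53 times as high. The 46 large-subunit genes had medians of 9.76 and 10.1, and the 31 small-subunit genes 9.94 and 11.3. The subunits overlapped over nearly their whole range.

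**Figure D1:**
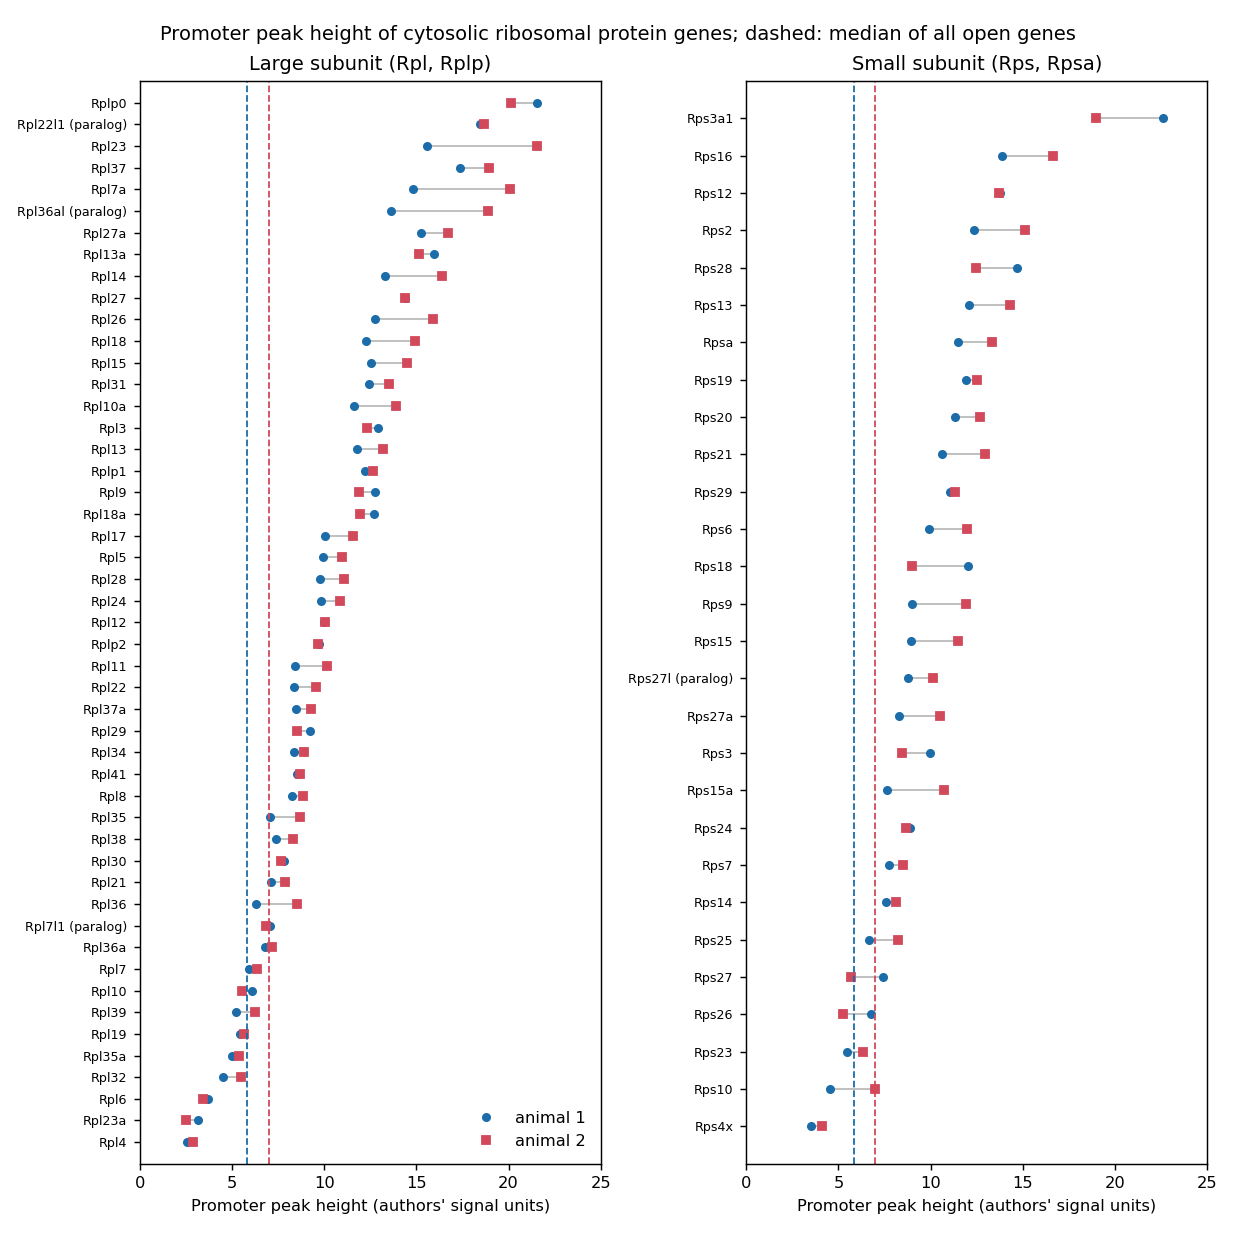
Height of the strongest promoter peak of 77 of the 81 genes with a peak in both animals, sorted by mean within each subunit (x axis, authors' signal units; blue circles animal 1, red squares animal 2, grey line joining them). Dashed lines are the medians of all open genes, 5.82 in animal 1 and 7.0 in animal 2; mean heights run from 2.72 for Rpl4 to 20.8 for Rplp0.

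The core genes were uniformly open but not uniform in height. Their mean heights spanned 7.64-fold, from 2.72 to 20.8, while those of open genes ran from 0.143 to 59.8. The highest core gene was Rplp0, which encodes the scaffold of the ribosomal stalk that recruits elongation factors, with 21.5 in animal 1 and 20.1 in animal 2. It ranked within the highest 0.606% and 2.16% of all protein-coding genes. Its peak in animal 1 lay at chr5:115559281-115559500 (mm10, plus strand), upstream of and across the first annotated TSS at 115559467. That promoter is shown to 30 bases past the TSS, as the highest of the family, and it lacks the CGCG element and the ETS motif described further on. It holds 2 CCAAT boxes (in lower case) and a TATAAA (capitals), which lies downstream of this annotated TSS and was therefore not counted as a TATA box.
Rplp0 promoter: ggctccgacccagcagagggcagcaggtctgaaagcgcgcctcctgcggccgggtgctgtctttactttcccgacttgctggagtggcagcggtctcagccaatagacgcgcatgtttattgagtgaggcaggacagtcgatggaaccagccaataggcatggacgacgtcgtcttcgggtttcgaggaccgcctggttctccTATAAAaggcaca

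Next came Rps3a1, for a protein on the solvent side of the small subunit, with 22.6 and 19.0. Animal 1 was the higher of the animals for both of these genes. Rpl23, for a protein of the subunit interface, followed with 15.6 and 21.6. Rpl37 had 17.4 and 18.9. Rpl7a had 14.8 and 20.1, at a peak it shares with the Mediator gene Med22. Also among the highest were Rpl27a (15.2 and 16.7), Rpl13a (15.9 and 15.1) and Rps16 (13.9 and 16.7). The order within this leading group changed between animals: Rpl23 was the highest core gene in animal 2 but only the sixth of them in animal 1.

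At the low end Rpl4, for a protein that lines the exit tunnel, had 2.56 and 2.89. Its strongest peak was centred at -444 and -464 bp from the TSS, where minus is upstream, in the promoter it shares with Zwilch. Rpl23a, for the protein at the tunnel exit where the signal recognition particle docks, had 3.14 and 2.51. Rpl6 had 3.67 and 3.42, and Rps4x had 3.50 and 4.13. Rpl32, Rpl35a, Rpl19, Rpl39 and Rps10 also stood low, with means from 4.98 to 5.76. Rps10 had 4.55 in animal 1 and 6.98 in animal 2. All of these genes lay below the open-gene median in both animals, and they belong to both subunits.

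Some core genes were among the most accessible promoters of the genome. In all, 17 core genes and 19 of the 91 genes were in the highest 10% of heights in both animals, which took a height of 12.04 in animal 1 and 13.9 in animal 2, against a background of 8.56% of all protein-coding genes. Those 17 are 22.1% of the core genes. The share among open genes alone was 14.3%. As the plot of cumulative heights shows, the family had few low promoters: the lower quartile of the core genes' mean heights was 7.73 against 2.66, and the upper quartile was 13.0 against 10.96.

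**Figure D2:**
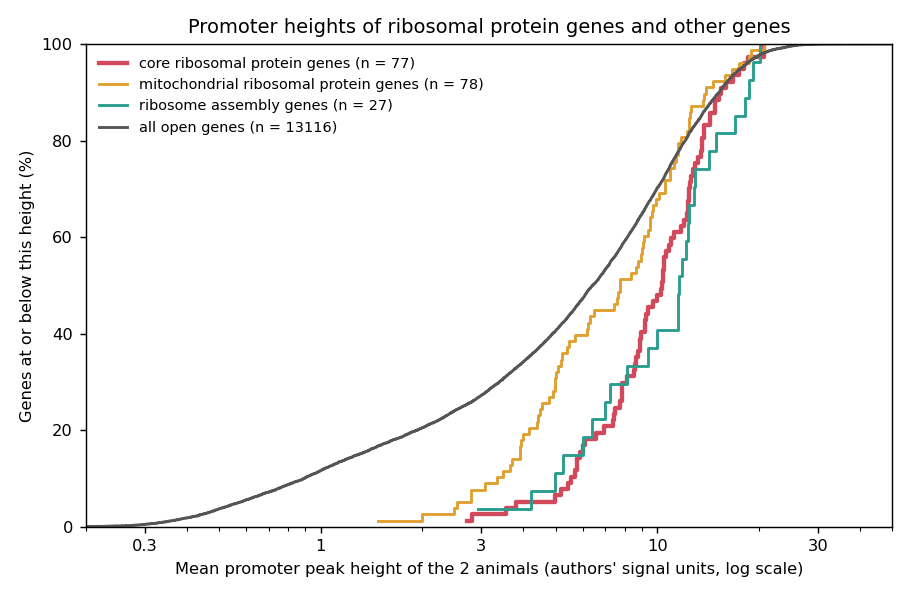
Share of genes at or below each mean promoter height (y axis, %; x axis, mean height of both animals in the authors' signal units, log scale) for core ribosomal protein genes (red, n = 77), mitochondrial ribosomal protein genes (orange, n = 78), ribosome assembly genes (green, n = 27) and all open genes (dark grey, n = 13116). The red curve starts at 2.72, lacks the low tail of the open genes and meets their curve near the top.

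The same comparison was made with other genes of protein synthesis. All 78 genes of mitochondrial ribosomal proteins, which build the separate ribosome of the mitochondrion, were open in both mice. Their medians were 7.28 and 8.63, between those of open genes and those of the core genes, and 8 of them (10.3%) were in the highest 10% in both animals, against 14.3% of open genes. Mrpl17 was highest at 20.8 ± 0.0575, then Mrps18b at 18.9 ± 0.826, and Mrps25 was lowest at 1.48. All 27 ribosome assembly genes were open, with medians of 10.1 and 13.0. Nolc1 (20.1) and Npm1 (19.3), for abundant nucleolar proteins, led that list and Pes1 (2.94) closed it. All 29 initiation factor genes were open, with medians of 8.83 and 11.6, from Eif1 (29.1) and Eif4a1 (22.6) down to Eif1ax (2.996).

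All 6 elongation factor genes were open as well. Eif5a reached 31.5 in animal 1 and 29.4 in animal 2, above every ribosomal protein gene. Eef1g followed with a mean of 18.2. Eef1a1, whose transcript also carries a TOP sequence, was the lowest of them with 9.14 and 8.92. The 12 genes of mTOR signalling and TOP control were open, with Rps6kb1 (20.1) and Eif4ebp2 (19.7) highest and Eif4ebp1 (3.23) lowest. The 11 genes for factors that bind these promoters were open, led by Zfp143 (20.3) and Sp1 (16.0), with Myc lowest at 3.73. Of ribosome components whose symbols fall outside the family, Fau stood at 17.5, with the same heights in both animals as Mrpl49, so this height cannot be assigned to either gene. Rack1 stood at 5.47. Every gene of these lists was open in both mice, as the core genes were. High promoters were not particular to the family. The share in the highest 10% in both animals was 22.1% of core genes, 25.9% of assembly genes and 34.5% of initiation factor genes. It was 50% of the 6 elongation factor genes, 25% of the mTOR list and 36.4% of the promoter factor list. Mean median heights of the elongation (13.8), promoter factor (12.7) and assembly (11.5) lists exceeded the 10.3 of core genes. Those of the initiation (10.2), mTOR (10.0) and mitochondrial ribosome (7.96) lists were lower.

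The paralogs split into open and closed genes. Rpl22l1, whose product can replace Rpl22, had 18.5 and 18.7, and Rpl22 itself had 8.37 and 9.54. Rpl36al had 13.6 and 18.9 at a peak that also lies in the promoter of Mgat2, and its parent Rpl36a had 6.75 and 7.14. Rps27l, a target of p53, had 8.79 and 10.1, and Rps27 had 7.41 and 5.70. Rpl7l1, for a nucleolar relative of Rpl7, had 7.08 and 6.82, but the strongest peak was centred at -9 bp from the TSS in animal 1 and at -519 bp in animal 2. Rpl7 had 5.90 and 6.33, at a peak it shares with Rdh10. In all 4 of these pairs the paralog was the higher gene in both animals.

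The muscle paralog Rpl3l and the testis-type paralog Rpl39l had no promoter peak in either animal. Rpl10l, a retrogene used in male germ cells, had none in animal 1 and a 60 bp peak of 0.299 in animal 2. All 7 retrocopies had none in either animal. Seen by gene structure, 81 of 84 genes with an annotated intron were open in both mice, and 0 of 7 single-exon genes were. The background over protein-coding genes of any structure was 59.8%, and shares by exon number were not counted for other genes. All 7 single-exon genes are among the paralogs and retrocopies just named, so the split is no separate result. The parents of the closed copies were all open, among them Rpl3 with 12.9 and 12.3 and Rpl10 with 6.07 and 5.51.

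Pseudogenes of the family were nearly all closed too. Of 294 annotated pseudogenes named after these genes, 9 (3.06%) had a peak within 1 kb of their start in both animals, while 285 of 9940 processed pseudogenes of any origin did (2.87%). Their median heights were 0.838 and 1.09. The peak of Rpl29-ps2, the highest in both animals with 1.88 and 1.99, lies in the promoter of Akr1e1. The peak of Rps2-ps13, with 0.222 and 0.292, was centred 81 and 69 bp downstream of its start. The others were centred farther away, from -748 to 932 bp, and the nearest of them, Rps19-ps10, at -368 and -378 bp. The treatment of reads that match several copies is not stated in the sources, and its part in the low counts of pseudogenes and retrocopies was not tested.

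Between the mice the core genes shifted less than open genes did at the median. Promoter heights were higher in animal 2 for most open genes, with a median log2 ratio of animal 2 over animal 1 of 0.27, and 85.4% of open genes were higher there. For the core genes the median log2 ratio was 0.14, an increase of 1.10-fold, and 57 of 77 (74.0%) were higher in animal 2. Relative to the median of all open genes, 57 of the 77 core genes fell below it, where the background is 50% by construction. No core gene lay over 2-fold from that median, but only 0.587% of all open genes did, so this does not set the family apart. The SD of the log2 ratio was 0.21 across core genes and 0.29 across open genes. These sets were not matched for height, and the lowest mean height was 2.72 among core genes and 0.143 among open genes. The heights are per library as deposited, and the part of library scaling or depth in the general shift was not tested.

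**Figure D3:**
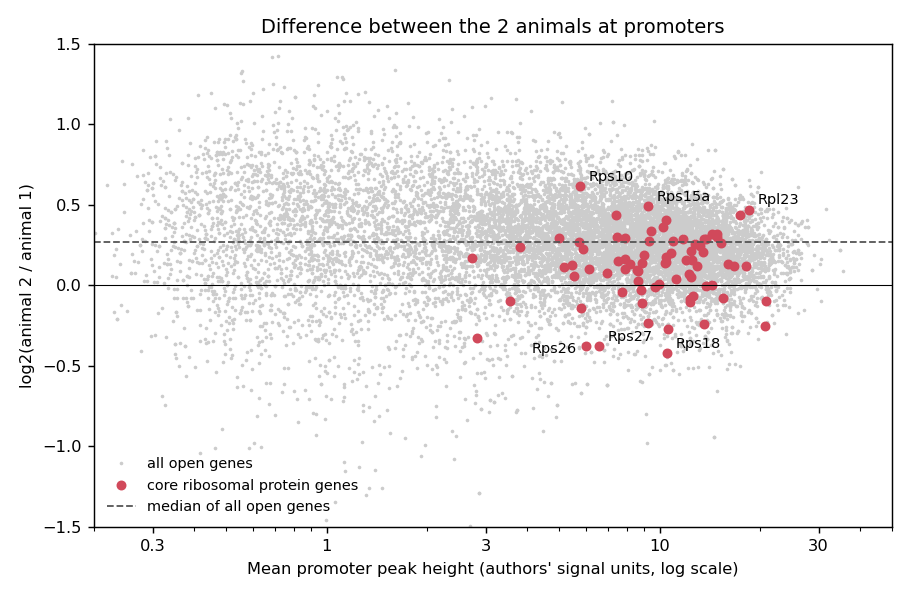
log2 ratio of promoter heights, animal 2 over animal 1 (y axis), against the mean height (x axis, authors' signal units, log scale) for all open genes (grey) and core ribosomal protein genes (red). The dashed line is the median of open genes, 0.27; 57 of 77 red points lie below it, and Rps10 at 0.62 and Rps18 at -0.42 mark the ends.

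The largest rises from animal 1 to animal 2 were those of Rps10 (4.55 and 6.98, log2 ratio 0.62) and Rps15a (7.64 and 10.7, log2 ratio 0.49). Rpl36al and Rpl23 followed with log2 ratios of 0.47 each and Rpl7a with 0.44. In the other direction Rps18 had 12.02 and 8.98, a log2 ratio of -0.42. Rps27 had 7.41 and 5.70 and Rps26 had 6.78 and 5.22, both with a log2 ratio of -0.38. Rpl23a was at -0.33. With 1 library per mouse these differences have no replicate check.

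The strongest peak usually sat just upstream of a TSS. Its midpoint had a median position of -35 bp in animal 1 and -30 bp in animal 2 for the core genes, and of -36 and -34 bp for open genes. The core genes were more tightly placed: the midpoint lay within 100 bp of a TSS in 84.4% and 87.0% of them, against 68.1% and 69.0% of open genes. They also have slightly more annotated TSS, with a median of 6 against 5. The strongest peaks of both animals overlapped for 76 of 77 core genes. The exception was Rpl10, for the protein that completes the peptidyl transferase region late in assembly, where the stronger peak was centred at -471 bp in animal 1 and nearer to the TSS in animal 2. Peaks were as wide as those of other genes, with medians of 220 and 200 bp in both sets.

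For 15 core genes the strongest peak also lay in the promoter of another coding gene in both animals, and the share among the other open genes was 20.4%. The highest such cases, the paralogs included, were Rpl7a with Med22, Rpl36al with Mgat2, Rpl18 with Sphk2, Rps28 with Ndufa7, Rpl15 with Nkiras1 and Rpl9 with Lias. At these sites the height cannot be assigned to either gene. For Rps10 the overlapping gene is the readthrough locus RPS10-NUDT3. The 65 members whose strongest peak overlapped no other coding promoter had a median height of 10.4, against 10.3 for all 81.

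Footprints, short stretches inside a peak where a bound protein shields DNA from the enzyme, were found in nearly all of these promoters. A footprint lay in the strongest peak in both animals for 76 of 77 core genes and 80 of the 91 genes, against a background of 57.7% of all protein-coding genes and 96.4% of open genes. The exception was Rpl13a, with 8 footprints in a 400 bp peak in animal 1 and 0 in a 60 bp peak in animal 2. The median number was 4 in both animals, as for open genes. It was also 4 among other genes with heights in the middle range of the core genes. Most footprints were counted in Rps18 (8 and 11) and Rps23 (13 and 3, in peaks of 460 and 200 bp). Rpl37a (8 and 7) and Rpl22 (8 and 6) followed, and Rps12 (7 and 6) and Rpl10 (5 and 8) were also among those with most.

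Footprints covered a larger share of core promoters than of open-gene promoters on both sides of the TSS, counted over all genes of each set. In the core genes the position most often covered was at -52 bp from the nearest TSS in animal 1 (50.6% of genes) and at -53 bp in animal 2 (49.4%). A second maximum at -16 bp was almost as high, with 49.4% and 46.8%. In open genes the most covered position was -15 bp in both animals, in 35.3% and 35.5%. Over the 100 bp before the TSS the mean coverage was 41.8% and 41.2% in core genes and 31.2% and 32.2% in open genes. Over the 100 bp after it, coverage was 28.6% and 29.6% against 19.5% and 21.1%. The peaks themselves covered more core genes at their best position, 94.8% in both animals against 77.0% and 76.1% of open genes, and the part of this in the footprint coverage was not tested.

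**Figure D4:**
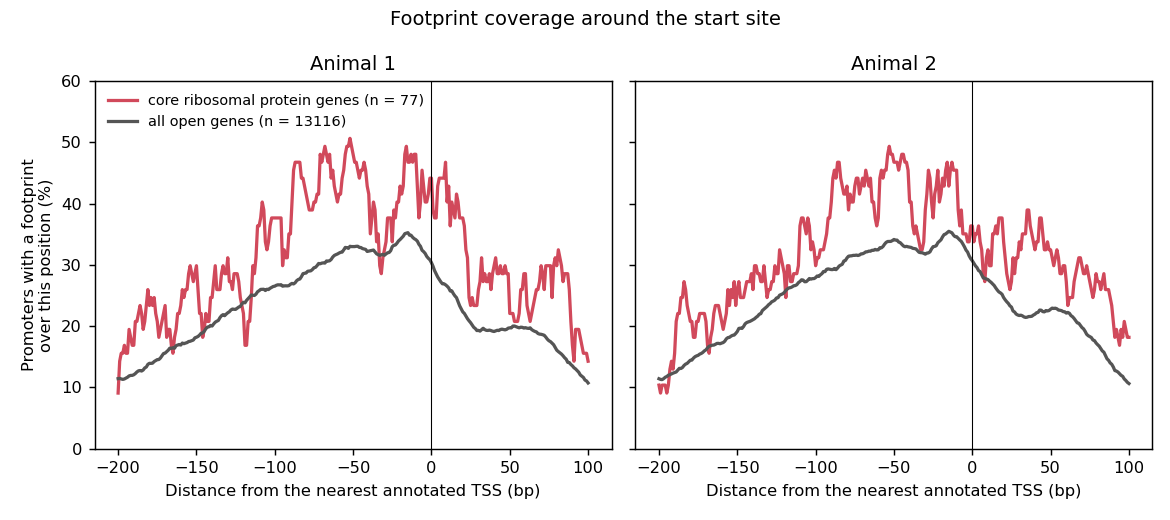
Share of promoters with a footprint over each position (y axis, %) by distance from the TSS nearest to the peak's midpoint (x axis, bp; negative is upstream), for core ribosomal protein genes (red, n = 77) and all open genes (dark grey, n = 13116) in each animal. The red line reaches 50.6% at -52 bp in animal 1 and 49.4% at -53 bp in animal 2; the grey line reaches 35.3% and 35.5% at -15 bp.

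Of 12 motifs searched on both strands, the CGCG element had the highest ratio of core to open genes. Its letters were TCTCGCGA, and it shares TCGCGA with the ZBED1 motif TGTCGCGA. It was found in the strongest peak of animal 1 in 15 of 77 core genes (19.5%) and in 2.38% of open genes, a ratio of 8.19. In the fixed window from 250 bp before to 50 bp after the most 5′ TSS it was found in 12 core genes (15.6%, 95% Wilson interval 9.15 to 25.3%), 2.12% of open genes and 1.38% of all protein-coding genes. Genes with the element included Rpl7a, Rpl10a, Rpl12, Rpl17, Rpl23a, Rpl26, Rpl27a, Rps3a1, Rps6, Rps7, Rps15a, Rps19 and Rps28. Matches that overlap, as in a palindrome, were joined to 1 site, which gave 15 sites. The following lines show 7 of these sites on the strand of the gene (mm10), with the element in capitals and 11 bases on each side. They were chosen as the sites of 5 high promoters with the element, the lowest promoter with the element and the single site outside a footprint.
Rps3a1 chr3:86142676-86142705: gccagctagtgTCGCGAGAttcttaaagcc
Rpl7a chr2:26910744-26910773: agggcgcctgcTCTCGCGAtatctgcggcc
Rpl27a chr7:109519163-109519192: cgcctgctaccTCGCGAGActtcgtgagct
Rpl26 chr11:68901529-68901560: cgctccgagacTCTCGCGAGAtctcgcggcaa
Rps28 chr17:33824543-33824574: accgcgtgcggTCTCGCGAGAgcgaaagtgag
Rpl23a chr11:78183596-78183625: tatataagctaTCGCGAGActtttatgagc
Rps19 chr7:24884139-24884168: gtatctcttggTCTCGCGAatgctaatgct

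The element was under a footprint at 14 of the 15 sites in each animal. Among open genes 85.5% and 89.4% of the sites were. The site of Rpl26 lay at -38 bp from the nearest TSS and that of Rpl27a at -18 bp, whereas that of Rps3a1 lay 11 bp downstream. The exception was Rps19, the gene most often mutated in Diamond-Blackfan anaemia, whose site lay at -217 bp, at the edge of the peak. Core genes with the element had median heights of 11.6 and 12.5, against 8.97 and 9.61 for the 62 without it. Both groups covered nearly the whole range of mean heights: with the element from 2.82 (Rpl23a) to 20.8 (Rps3a1), without it from 2.72 (Rpl4) to 20.8 (Rplp0).

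Rpl26, mutated in a form of the same anaemia, held the CGCG element together with 2 other motifs. Its peak, with heights of 12.7 and 15.9, is shown whole at chr11:68901421-68901600 (mm10, plus strand). The capitals mark, in order, the cyclic AMP response element TGACGTCA, the CGCG element in palindromic form and the ETS motif CCGGAAG. The nearest TSS is at 68901583, close to the 3′ end of the sequence.
Rpl26 promoter: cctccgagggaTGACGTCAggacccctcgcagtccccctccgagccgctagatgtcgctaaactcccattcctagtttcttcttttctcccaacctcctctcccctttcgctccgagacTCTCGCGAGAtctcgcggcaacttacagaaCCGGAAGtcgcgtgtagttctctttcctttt

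**Figure D5:**
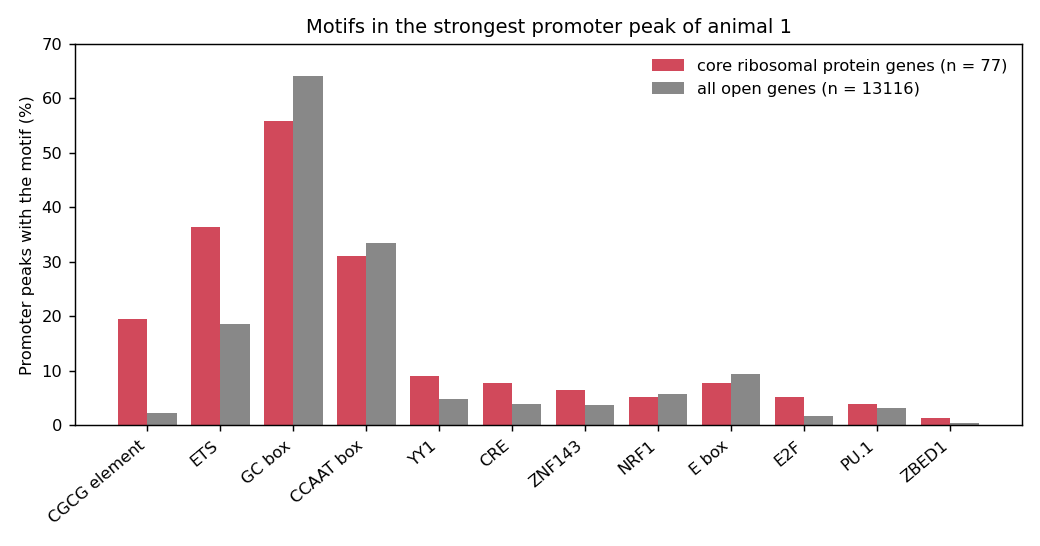
Share of strongest promoter peaks of animal 1 (y axis, %) that hold each of 12 motifs on either strand, for core ribosomal protein genes (red, n = 77) and all open genes (grey, n = 13116). Bars start at 0; the CGCG element is in 19.5% against 2.38% and the ETS motif in 36.4% against 18.7%; the GC box is in 55.8% against 64.1%.

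The ETS motif CCGGAAG, which shares the letters GGAAG with the searched PU.1 motif, was in the strongest peak of 28 core genes (36.4%) and of 18.7% of open genes. In the fixed window it was in 27.3%, 16.4% and 10.8% of core, open and all genes. Among its core sites 20 of 32 in animal 1 and 19 of 32 in animal 2 were under a footprint, close to the 62.4% and 60.3% of open genes. Core genes with and without it had medians of 9.13 and 9.91 in animal 1, and of 9.33 and 10.95 in animal 2. The ZNF143 motif ACTACAA was in 13.0% of the fixed windows against 3.995% of open and 3.70% of all genes, and in 6.49% of the peaks against 3.76%. The YY1 motif AAGATGGC was in 9.09% of the peaks against 4.88%. The GC box GGGCGG was less frequent in core genes, with 44.2% of the fixed windows against 59.8% of open and 43.0% of all genes. Core genes with a GC box in the peak had median heights of 11.05 and 11.6, and those without it 8.91 and 9.42. The remaining motifs in the peaks were the cyclic AMP response element (7.79% against 3.85%), the CCAAT box (31.2% against 33.5%), the NRF1 motif GCGCATGC (5.19% against 5.72%), the E box CACGTG (7.79% against 9.44%, but 14.3% against 10.03% in the fixed window), the E2F motif TTTCCCGC (5.19% against 1.72%), the PU.1 motif GAGGAAGT (3.90% against 3.16%, but 2.60% against 3.11% in the fixed window) and the ZBED1 motif TGTCGCGA (1.30% against 0.412%).

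TATAAA on the sense strand, 40 to 15 bp before the most 5′ TSS, was found in 0 of 77 core genes (95% Wilson upper bound 4.75%) and in 0.915% of open genes. Taking every annotated TSS within 1 kb of the peak, it preceded Rps2, Rps28 and Rpl36a, or 3.90% of core genes against 1.36% of open genes. A match is only a match of letters, and its absence from a window says nothing of the factor.

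Pyrimidine runs, of which the TOP sequence is one kind, were counted near annotated start sites, whether or not the start lies inside the run. A run of 8 or more C or T on the sense strand within 20 bp of the most 5′ TSS was present in 30 core genes (39.0%), in 20.2% of open genes and in 21.2% of all genes. Runs of purines of the same length, counted for comparison, were in 15.6% of core and 21.7% of open genes. Within 5 bp of that TSS the shares were 25.97% and 9.80%. Within 5 bp of any annotated TSS less than 1 kb from the peak's midpoint, they were 74.0% (57 of 77 core genes) and 19.5% of open genes, a count added after the data were seen, and purine runs were in 24.7% and 21.8%. Core genes have a median of 6 annotated TSS and open genes of 5, and the purine shares give the level for the same TSS.

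Of those 57 genes the longest run at a TSS had a median of 12 bases and reached 24, counting only bases within 20 of that TSS. The midpoint of the promoter peak had a median position of -74 bp from that TSS in animal 1 and -72 bp in animal 2. The following lines show the bases from 20 before to 20 after that TSS (mm10, strand of the gene, run in capitals) for 5 of the 10 highest core promoters.
Rpl23 chr11:97782362-97782402: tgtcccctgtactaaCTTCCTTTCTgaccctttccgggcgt
Rpl37 chr15:5116625-5116665: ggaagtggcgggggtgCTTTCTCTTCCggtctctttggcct
Rpl7a chr2:26910797-26910837: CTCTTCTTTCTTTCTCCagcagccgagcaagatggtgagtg
Rpl27a chr7:109519176-109519216: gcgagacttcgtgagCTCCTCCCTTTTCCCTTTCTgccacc
Rpl13a chr7:45128717-45128757: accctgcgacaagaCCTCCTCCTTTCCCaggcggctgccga

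The run of Rpl7a ends before the annotated TSS, and the others cover it. These runs measured 10 bases in Rpl23, 11 in Rpl37, 20 in Rpl27a and 14 in Rpl13a. That of Rpl7a measured at least 17, since it begins at the first base shown. In Rpl27a the run begins close behind the CGCG site shown above. The highest promoters were not all of this kind: Rplp0 and Rps3a1 had longest runs of 5 and 2 bases at their annotated TSS. Annotated starts need not be the starts used in these spleens, since DNase-seq does not map them.

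Genes of the family that host small nucleolar RNAs, the guides of RNA modification that are cut from introns, had higher median heights. The 30 core genes with an annotated snoRNA inside, 58 snoRNAs in all, had medians of 11.4 and 12.1, and the 47 others 8.86 and 9.62. Of the hosts, 10 (33.3%) were in the highest 10% in both animals, and 7 of the others (14.9%) were, against 8.56% of all genes and 14.3% of open genes. Single genes departed from this, since the lowest core gene, Rpl4, hosts 5 of them and Rpl23a hosts 3.

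The 4 X-linked core genes all stood below the median of the autosomal core genes in both animals. A male has only 1 copy of them per cell, and the part of copy number in their heights was not tested. Rpl36a had 6.75 and 7.14, Rpl10 6.07 and 5.51, Rpl39 5.19 and 6.25, and Rps4x 3.50 and 4.13. Their medians were 5.63 and 5.88 against 9.93 and 10.95 for the 73 autosomal core genes. Open genes on X had medians of 3.29 and 3.69 against 5.98 and 7.22 on the autosomes, and all 4 X-linked members stood above the X median in both animals.

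Core genes tied to disease of the blood had heights like the rest. The 19 Diamond-Blackfan genes had medians of 9.91 and 10.7, and the 58 other core genes 9.81 and 10.7. Rps19 had 11.9 and 12.5. Rpl5 (9.91 and 10.95) and Rpl11 (8.39 and 10.1) encode the proteins that bind 5S RNA and restrain Mdm2. Rps14, whose loss of a copy underlies the anaemia of the 5q- syndrome, had 7.59 and 8.13. Rpsa, mutated in people born without a spleen, had 11.5 and 13.3. Rpl22, needed for the growth of αβ T cells, had 8.37 and 9.54. Of the remaining stalk genes, Rplp1 (12.2 and 12.7) stood above the core medians and Rplp2 (9.73 and 9.68) near them. Both were well below Rplp0.

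The surroundings of these genes were rich in peaks. Between 1 and 50 kb from the most 5′ TSS the core genes had a median of 10 peaks in animal 1 and 9 in animal 2, against 6 in both animals for open genes and 5 and 4 for all genes. They also had more neighbours, with a median of 3 other coding genes starting within 50 kb against 2. When peaks in the promoter of any coding gene were left out, the medians were 4 and 4 for core genes and 4 and 3 for open genes. Among the most crowded were Rps16 (25 and 35 peaks), Rps18 (28 and 31, in the major histocompatibility region), Rplp2 (20 and 35) and Rpl19 (28 and 20).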

How the data were processed

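DNase-seq files of 2 spleen libraries were used, aligned to mm10 per the labels. No source used here names the aligner, the callers or their thresholds. For each library the authors deposited 2 peak lists with a height, a signal whose unit is not stated in words, footprint intervals with the constant 0.01 in the column for a p-value, and cut-rate intervals with a false discovery rate (a q-value), all under 0.05. The longer peak list was used. Genes and TSS came from GENCODE M21 and sequences from GRCm38.p6, the sequence of mm10. Motifs, runs and the sequences shown were read from this reference alone. Sequence differences between the parental strains of the hybrid were not examined. A peak counted for a promoter when it overlapped the 1 kb around a TSS by 1 bp or more, a footprint when its midpoint lay in the peak, and a distal peak by its midpoint. Heights were compared as deposited. The depth of the libraries in reads is not used here, so no counting interval is given for heights. Wilson intervals cover counting of genes only. The searches for peaks, motifs and runs were tested on simulated data. The members, lists, motifs and rules were chosen with earlier results of these data known. Genes were named by a rule: the 10 highest and lowest core genes, those without a peak, the 5 highest and lowest ratios, the 5 with most footprints and most peaks nearby, the paralogs, the stalk, X-linked and blood phenotype genes and the 6 highest with a shared peak. Of other lists the 2 highest, the lowest and those with no peak were named. Rpl26, the sequences shown and a few further examples were chosen after their values were seen. Python 3.11.15 with pandas 2.3.3, numpy 2.4.6, scipy 1.17.1 and pysam 0.24.0 was used. Alternatives were other promoter widths, TSS choices, peak lists, footprint rules and gene sets, and each animal alone. The values of a few genes are not reported here, although they enter the counts and medians.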

Additional observations from a re-analysis of the deposited data

How the results depend on the processing

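Of 90 alternative values for 21 results, 73 stayed within a set range and 0 changed sign. That range was the SD between animals, the interval of the share or 1.5 times the count, and for the ratio the SD of 0.21 across genes. For the height, footprints, position and nearby peaks, each animal alone stays within the SD between animals by construction. Those values are therefore no check. The count of genes with a promoter peak, the median height, the ratio between animals and the count in the highest 10% stayed in range under each alternative run. With 500 bp promoters, the shorter peak list or the higher 50% of peaks, these values were identical to the main ones. Those settings are therefore little check of them. The range of the peak count extended above the 91 genes, so only a fall could have left it. With core genes only, that count repeats the 77 open core genes. The range of the ratio was wide, since it also holds the open-gene median of 0.27. The log2 ratio itself ran from 0.133 to 0.139 under all alternatives run. Without either animal, the count in the highest 10% was 19 to 26 and the median height 9.84 to 10.7. The median position of the peak, -32.5 bp, became -31 bp with 2 kb promoters, -17 bp with the most 5′ TSS only and -22 bp with the peak nearest to a TSS. The median number of footprints was 3.5 when only footprints wholly inside the peak were counted. The median number of peaks within 50 kb, 8.5 over the 91 genes, was 9.5 for core genes, 4 outside coding promoters, 6.5 in the shorter list and 3 within 20 kb. A pyrimidine run was found in 38.5% of the 91 genes, in 19.8% with 10 or more bases, in 25.3% within 5 bp of the most 5′ TSS, and in 64.8% within 5 bp of any TSS near the peak, a setting chosen after seeing the data. Pseudogenes with a peak fell from 9 to 4 within 500 bp. The cause of these shifts was not tested beyond the narrower or wider search each setting makes. No paired analysis was possible because there is 1 group. Heights rest on 1 library per animal, and counting error within a library was not modelled.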
